A study of Gossypium hirsutum with 7 samples.

Results

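FLA4, FLA14 and FLA19 are cotton genes for fasciclin-like arabinogalactan proteins. They were read by 7 probe sets, those whose single annotated gene carries one of these names, out of 23977 cotton probe sets on the array and 19 probe sets from 12 genes with an FLA name. FLA4 had 1 probe set, FLA19 had 3 and FLA14 had 3. The other 12 FLA probe sets, from 9 genes, are used as family background. The 3 genes were chosen by their own measured values, namely low signals in over-expression ovules relative to wild type or to silenced ovules in an earlier reading of these arrays. The 3 comparisons among the groups use the same arrays and add up to 0, so all differences of the 7 members are given as descriptions, and no test of them is used as support.

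Fasciclin-like arabinogalactan proteins are secreted glycoproteins of the plant cell surface. They combine fasciclin domains, a fold associated with adhesion between cells or between cell and matrix, with stretches that carry arabinogalactan sugars, and many are tethered to the plasma membrane by a lipid anchor. In Arabidopsis, loss of the gene also named FLA4 impairs root cell expansion under salt stress, and in cotton several family members are expressed in fibres, where FLA1 has been linked to fibre initiation and elongation. The cotton numbers do not follow the Arabidopsis ones, so the role of each member in cotton ovules is not assumed here.

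RNA came from whole ovules of Gossypium hirsutum at 0 days post anthesis, the flowering day, on which fibre cells begin to bulge from the ovule epidermis. The genotypes compared were over-expression of GhHD-1 (3 arrays), silencing of GhHD-1 (2 arrays) and wild type (2 arrays). GhHD-1 encodes a homeodomain protein of the class that acts in the plant epidermis, and the study asked which genes it may regulate at fibre initiation. All plants grew in a glasshouse, and per the labels the replicates are biological ones; the labels name neither the promoters used nor the number of transgenic lines per group. The level of GhHD-1 itself could not be checked, because the annotation gives its name to none of the probe sets. The deposited values are log2 intensities, on which 1 unit is a doubling.

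Array medians lay between 7.61 and 7.72 log2 units, and 5% of the probe sets of each array lay below 3.50 to 3.67. Signals near 4 thus lay near the low end of an array's values, which is called the floor here. A detection limit was not tested. The wild-type replicates stood apart from each other at the reporter control RPTR-Ghi-U57609-2_s_at, which read 5.91, 8.59 and 8.81 in over-expression, 9.73 and 9.84 in silenced ovules, and 5.09 and 11.88 on wild-type replicates 1 and 2. Across probe sets wild-type replicate 2 correlated more closely with over-expression replicate 3 (r = 0.992) than with wild-type replicate 1 (r = 0.981). Wild-type replicate 1 likewise correlated more closely with silenced replicate 1 (r = 0.987) than with wild-type replicate 2. At the reporter, over-expression replicate 1 also stood apart from the others of its group. The wild-type arrays thus differ from each other, and these values do not show which array, if any, is mislabelled. The labels were not tested, and differences of FLA4 and FLA19 from wild type are also given against each wild-type array. In RNA of whole ovules, fewer cells that express a gene and less RNA per cell cannot be told apart.

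FLA4 was lowest in over-expression ovules, highest in silenced ovules and intermediate in wild type. Its probe set, Ghi.68.1.A1_s_at, read 10.10, 10.63 and 9.91 log2 units in over-expression, 11.82 and 11.77 in silenced ovules and 11.29 and 11.02 in wild type. The groups did not overlap: the highest over-expression array lay 0.38 below the lowest wild-type array, and the lower silenced array lay 0.48 above the higher wild-type array.

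The FLA4 means were 10.21 ± 0.38 in over-expression (SD, n = 3), 11.79 ± 0.04 in silenced ovules (SD, n = 2) and 11.15 ± 0.19 in wild type (SD, n = 2). Over-expression minus wild type was -0.94 log2 units (moderated SE 0.22), a ratio of 0.522. Silenced minus wild type was 0.64 (SE 0.24), a ratio of 1.56. With wild type between them, the transgenic groups were necessarily the furthest apart. Over-expression minus silenced was -1.58 (SE 0.22), and the silenced signal was 2.98 times the over-expression signal. Of all 23977 probe sets, 0.334% had a difference between these groups as low as that of FLA4 or lower. FLA4 was chosen for low over-expression signals, so this share describes the choice and supports nothing.

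Replicates of FLA4 varied most in over-expression, where replicate 2 read higher than the other two. The silenced arrays were nearly equal. Against wild-type replicate 1 alone the over-expression mean differed by -1.07, and against wild-type replicate 2 alone by -0.80. The silenced mean differed by 0.50 and 0.77 from these same arrays. Because the groups did not overlap, neither wild-type array alone could turn a direction at FLA4, so only the sizes are informative.

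**Figure D1:**
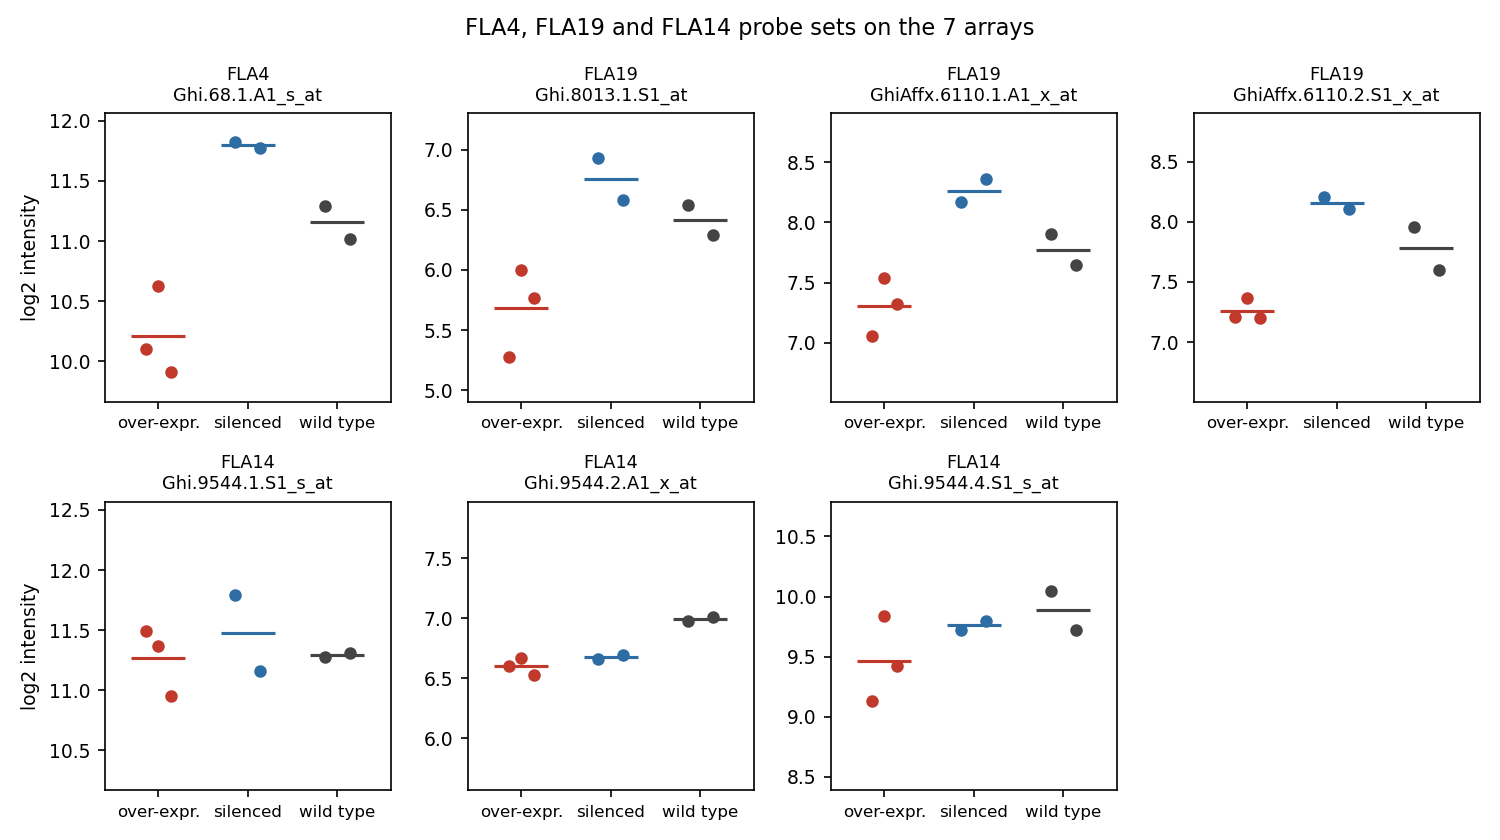
Log2 intensity of the 7 FLA4, FLA19 and FLA14 probe sets (1 panel each, all panels spanning the same number of log2 units) in over-expression, silenced and wild-type ovules; points are arrays and lines are group means. In the FLA4 panel and the 3 FLA19 panels the over-expression points lie lowest, the silenced points highest and the wild-type points between them, without overlap; the FLA14 panels show no common order.

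FLA19, whose gene is also listed simply as FLA, followed the same order at each of its 3 probe sets. Ghi.8013.1.S1_at read 5.28, 6.0 and 5.77 in over-expression, 6.93 and 6.58 in silenced ovules and 6.54 and 6.29 in wild type. GhiAffx.6110.1.A1_x_at read 7.06, 7.54 and 7.32 in over-expression, 8.17 and 8.36 in silenced ovules and 7.90 and 7.65 in wild type. For GhiAffx.6110.2.S1_x_at the values were 7.21, 7.37 and 7.20 in over-expression, 8.21 and 8.11 in silenced ovules and 7.96 and 7.60 in wild type. At all 3 probe sets every over-expression array lay below every wild-type array and every silenced array lay above them.

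The distances between groups were uneven. Ghi.8013.1.S1_at gave the largest FLA19 difference of over-expression from wild type, -0.73 (SE 0.23), but its silenced and wild-type arrays were separated by a gap of only 0.04, with a difference of 0.34 (SE 0.25). At GhiAffx.6110.1.A1_x_at over-expression minus wild type was -0.47 (SE 0.17) and silenced minus wild type was 0.49 (SE 0.18). At GhiAffx.6110.2.S1_x_at these differences were -0.52 (SE 0.14) and 0.38 (SE 0.15).

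Between the transgenic groups the 3 FLA19 probe sets agreed in size, with over-expression minus silenced at -1.07 (SE 0.23), -0.96 (SE 0.17) and -0.90 (SE 0.14) in the order above. The silenced signal was thus 2.10, 1.95 and 1.86 times the over-expression signal. The gaps between the nearest arrays of these groups were 0.58, 0.64 and 0.73 log2 units. With wild type lying between, they are necessarily wider than the gap between either group and wild type. The group means of GhiAffx.6110.2.S1_x_at, the FLA19 set with the smallest over-expression spread, were 7.26 ± 0.10 in over-expression (SD, n = 3), 8.16 ± 0.07 in silenced ovules (SD, n = 2) and 7.78 ± 0.25 in wild type (SD, n = 2).

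The FLA19 differences also kept their sign against each wild-type array, as they must where the groups do not overlap. Against wild-type replicate 1 the over-expression mean of GhiAffx.6110.2.S1_x_at differed by -0.69 and against wild-type replicate 2 by -0.34, while the silenced mean differed by 0.20 and 0.56. For GhiAffx.6110.1.A1_x_at the corresponding over-expression differences were -0.59 and -0.35 and the silenced ones 0.37 and 0.62. For Ghi.8013.1.S1_at they were -0.86 and -0.60 in over-expression, and 0.22 and 0.47 in silenced ovules. At all 3 probe sets, as at FLA4, wild-type replicate 2 was the lower of the pair.

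**Figure D2:**
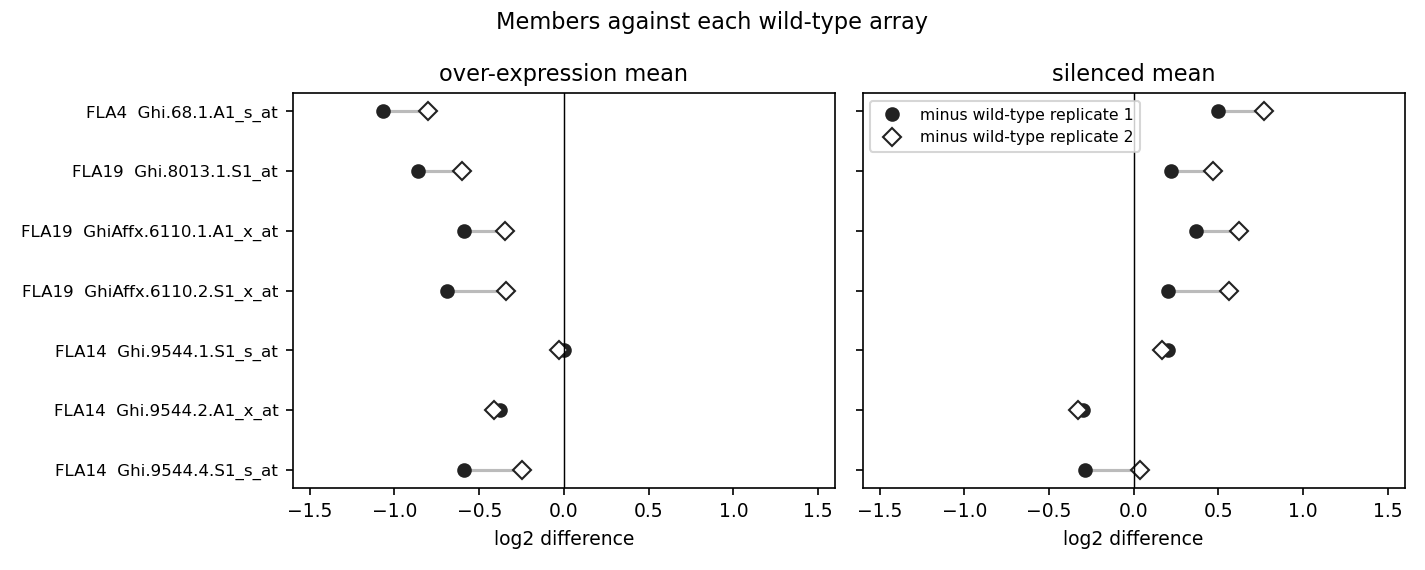
Log2 difference of the over-expression mean (left) and of the silenced mean (right) from wild-type replicate 1 (filled circles) and wild-type replicate 2 (open diamonds) for the 7 member probe sets. FLA4 and FLA19 lie left of 0 in over-expression and right of 0 in silenced ovules against either wild-type array; the FLA14 probe set Ghi.9544.4.S1_s_at changes sign in silenced ovules, with -0.29 against replicate 1 and 0.04 against replicate 2.

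FLA14 did not share this order, and its 3 probe sets differed from one another. Ghi.9544.2.A1_x_at read 6.60, 6.67 and 6.53 in over-expression, 6.66 and 6.69 in silenced ovules and 6.98 and 7.01 in wild type. Both transgenic groups were thus below wild type without overlap, and they overlapped with each other. Over-expression minus wild type was -0.40 (SE 0.10), silenced minus wild type was -0.32 (SE 0.11) and over-expression minus silenced was -0.08 (SE 0.10). These first differences share the wild-type arrays.

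The brightest FLA14 probe set, Ghi.9544.1.S1_s_at, read 11.49, 11.37 and 10.95 in over-expression, 11.79 and 11.16 in silenced ovules and 11.28 and 11.31 in wild type. The wild-type arrays lay inside the range of both other groups. Its over-expression mean was 11.27 ± 0.28 (SD, n = 3) and its wild-type mean 11.29 ± 0.02 (SD, n = 2), a difference of -0.02 (SE 0.23), and the sign turned to 0.04 when each array was centred on its median. Silenced minus wild type was 0.19 (SE 0.25), which rested on silenced replicate 1 and was -0.13 without it.

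The remaining FLA14 set, Ghi.9544.4.S1_s_at, read 9.13, 9.84 and 9.42 in over-expression, 9.72 and 9.80 in silenced ovules and 10.05 and 9.72 in wild type. Its over-expression mean lay below wild type, by -0.42 (SE 0.22), but over-expression replicate 2 lay above wild-type replicate 2, so the groups overlapped. Against wild-type replicate 1 this difference was -0.59 and against wild-type replicate 2 it was -0.25. The silenced mean differed from wild type by -0.12 (SE 0.24). A statement about FLA14 as a gene therefore depends on which probe set is read: the lower signal in both transgenic groups was complete at 1 of the 3.

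**Figure D3:**
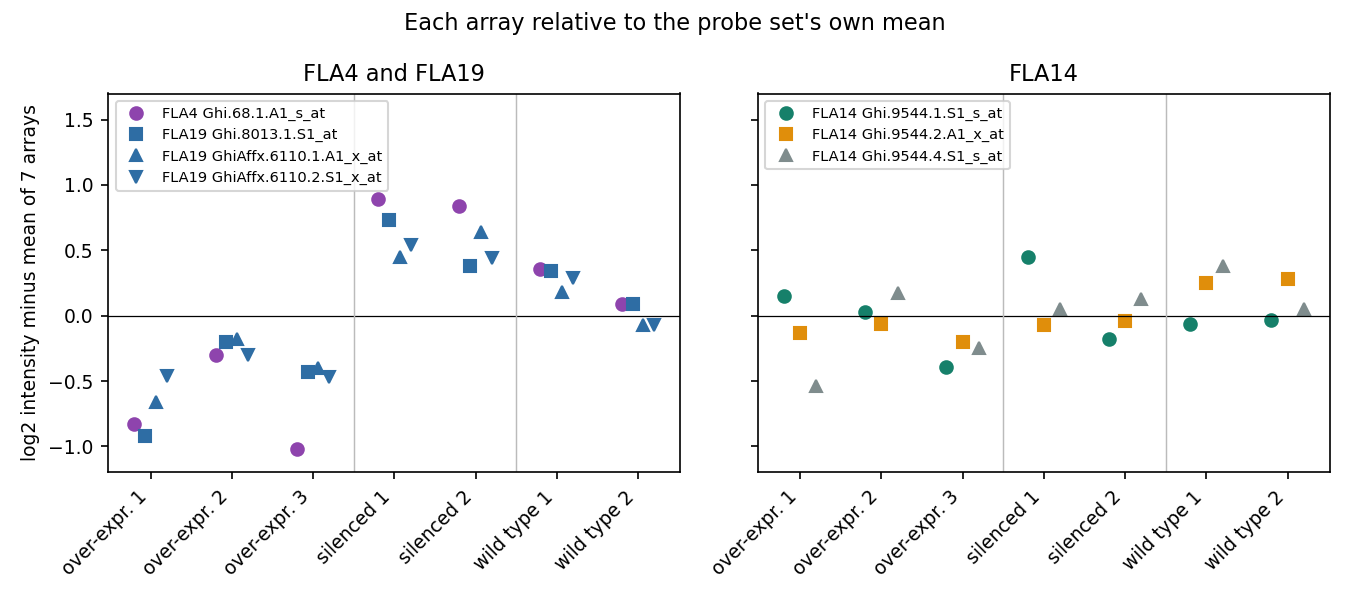
Each of the 7 arrays relative to the probe set's own mean over all arrays, in log2 units, for FLA4 and FLA19 (left) and FLA14 (right); vertical lines part the groups. The 4 FLA4 and FLA19 probe sets share their group levels, all below 0 in over-expression and all above 0 in silenced ovules. Within these groups they do not always rise and fall together. The 3 FLA14 probe sets part from one another on most arrays.

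Counted over the members, 5 of the 7 probe sets had over-expression arrays wholly below wild type, namely FLA4, all of FLA19 and 1 of FLA14; over all probe sets this share was 9.81%. Over-expression lay wholly below silenced at 4 of 7 (16.1% of all probe sets), and silenced wholly above wild type at the same 4 (23.6% of all). Silenced lay wholly below wild type at 1 of 7, an FLA14 set (21.8% of all). The full order, with over-expression lowest, wild type between and silenced highest and no arrays overlapping, was found at 4 of 7 members and at 155 probe sets in all, or 0.646%. Because the members were chosen for such differences, these counts describe the choice and nothing is read from them.

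The choice of members used these contrasts, so limma's calls on them are counts that support nothing. In the fit of all 7 arrays 0 of the 7 members passed at an adjusted p of 0.05 in any comparison. That fit called 0.00417% of all probe sets between over-expression and wild type, 0.0209% between over-expression and silenced ovules, and 0% between silenced ovules and wild type (3472 probe sets at an unadjusted p under 0.05, and 8 called with a robust trended prior). Between over-expression and silenced ovules, a fit of only these arrays called 2 of 7 members and 0.993% of all probe sets, and one with array weights called 4 of 7 and 5.04% of all. Leaving out wild-type replicate 2 gave 475 calls between over-expression and wild type in place of 1, none of them a member.

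The median difference over the 7 members was -0.47 for over-expression against wild type, -0.90 for over-expression against silenced and 0.34 for silenced against wild type. Medians over all 23977 probe sets were 0.02, 0.01 and 0.02. All 7 members had a negative difference of over-expression from wild type as deposited, and 6 of 7 after centring each array on its median.

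The other FLA genes showed no such separation between the transgenic groups. Over-expression minus silenced ranged from -0.20 to 0.31 over their 12 probe sets, with a median of -0.03, and 7 were lower and 5 higher. The lowest belonged to FLA15 (-0.20, SE 0.19, limma adjusted p = 0.747) and the highest to the FLA6 set Ghi.4418.1.S1_s_at (0.31, SE 0.20, adjusted p = 0.597). Limma called 0 of the 12 in this comparison, and 0 had an unadjusted p under 0.05. Whether the members differ from the rest of the family was not tested, since the choice of members fixes that difference.

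Against wild type the other FLA probe sets went both ways in over-expression, 7 lower and 5 higher, with a median of -0.13. FLA6 was the highest: its set Ghi.4418.2.S1_s_at read 5.75, 5.64 and 5.46 in over-expression, 5.46 and 5.43 in silenced ovules and 4.93 and 5.42 in wild type, a difference of 0.44 between over-expression and wild type (SE 0.17, limma adjusted p = 0.457). Every over-expression array lay above both wild-type arrays there, by a gap of 0.04. Its other set, Ghi.4418.1.S1_s_at, gave 0.43 (SE 0.20, adjusted p = 0.487) with overlapping groups.

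FLA2 and FLA13 shared the lowest difference of over-expression from wild type among these 12. FLA2 read 4.33, 4.13 and 4.33 in over-expression, 4.31 and 4.33 in silenced ovules and 4.56 and 4.72 in wild type, close to the floor. Over-expression minus wild type was -0.37 (SE 0.12, adjusted p = 0.427). FLA13 gave its value at Ghi.9666.2.S1_s_at, a bright probe set with 9.58, 9.51 and 9.63 in over-expression, 9.54 and 9.63 in silenced ovules and 9.82 and 10.06 in wild type (-0.37, SE 0.12, adjusted p = 0.427). Its silenced arrays were low as well, by -0.36 (SE 0.13, adjusted p = 0.282), a comparison that uses the same wild-type arrays. A further FLA13 set, Ghi.9666.1.S1_at, overlapped in every comparison.

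Limma called 0 of these 12 between over-expression and wild type, with 3 at an unadjusted p under 0.05, and 0 between silenced and wild type, with 2 at an unadjusted p under 0.05. Silenced minus wild type ranged from -0.36, the FLA13 set above, to 0.27 at the FLA6 set Ghi.4418.2.S1_s_at (SE 0.18, adjusted p = 0.524), with 7 lower and 5 higher. That split turned to 5 lower and 7 higher when arrays were centred on their medians, so it carries no direction. FLA7 (3.67 in over-expression, 3.56 in silenced ovules and 3.53 in wild type) and FLA16 (3.07, 3.13 and 2.87 in the same order) were at the floor of the array.

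**Figure D4:**
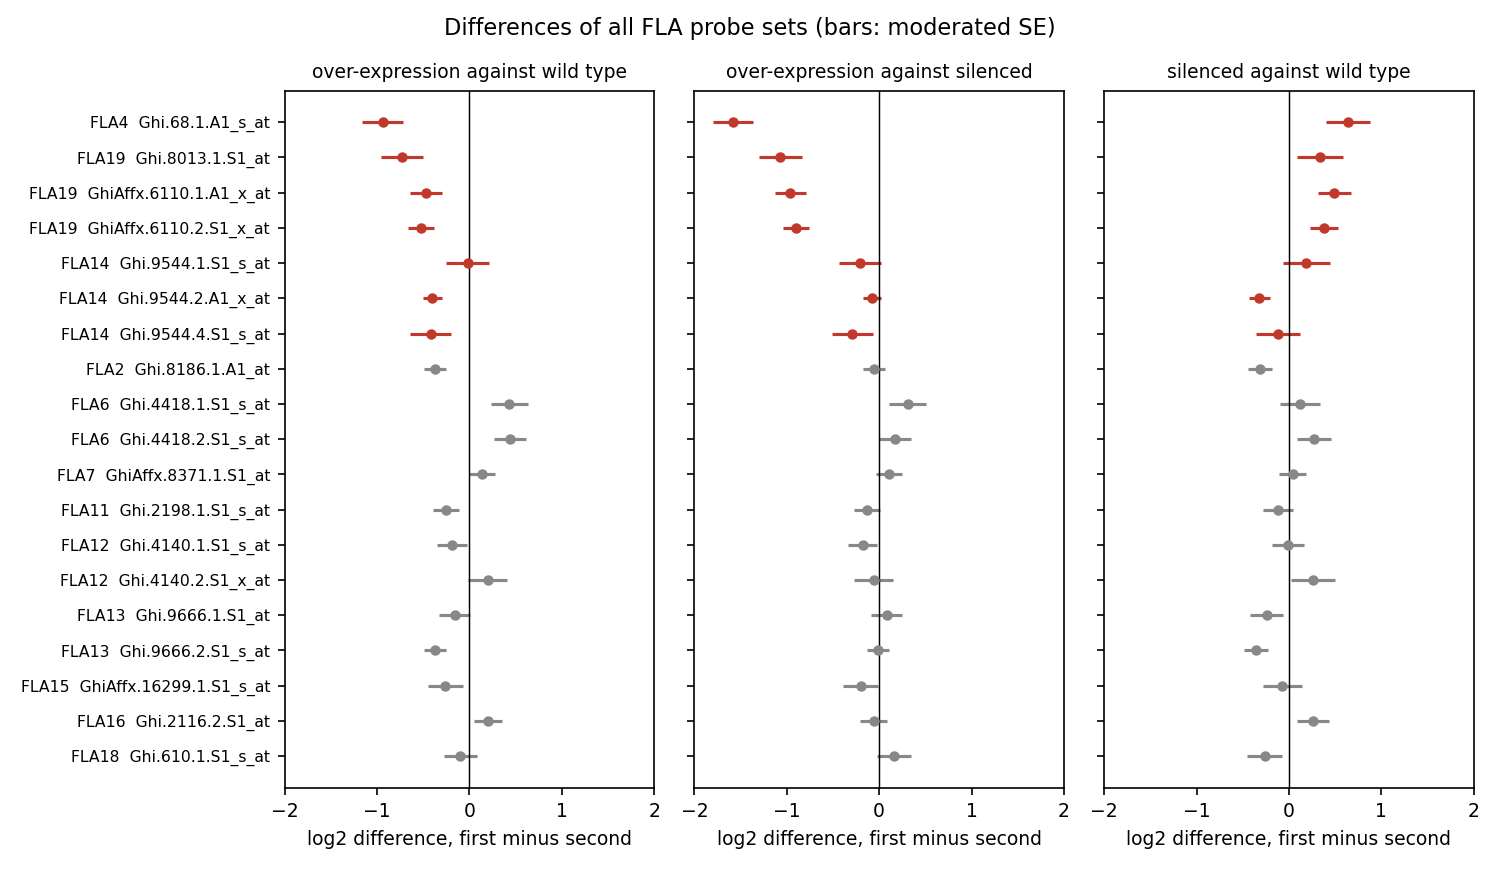
Log2 differences (points) with moderated SE (bars) of the 19 FLA probe sets for over-expression minus wild type, over-expression minus silenced and silenced minus wild type; red marks FLA4, FLA19 and FLA14, grey the other FLA genes. In the middle panel the FLA4 and FLA19 points lie between -1.58 and -0.90, and the grey points between -0.20 and 0.31.

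FLA4 and FLA19 resembled each other more than any other named gene resembled FLA4. Among 323 other probe sets with a named gene, the 3 with the highest Pearson correlation with FLA4 over the 7 arrays were the 3 FLA19 sets, with r = 0.976, 0.954 and 0.928. The FLA19 sets correlated with each other at 0.93 to 0.95. These values describe 7 arrays that fall into 3 groups and share 1 deposited table. Both genes were chosen by their values on these arrays, so the likeness of FLA4 and FLA19 partly restates that choice and supports nothing. The IDs of these probe sets end in _s_at or _x_at except Ghi.8013.1.S1_at, endings for sets that can read several related transcripts, and whether a probe of one gene also binds the transcript of the other was not tested.

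Starting from the brightest FLA19 set, GhiAffx.6110.1.A1_x_at, the nearest named genes were grlk5 (r = 0.982), FLA4 (r = 0.954) and the MYB transcription factor gene MYB1 (r = 0.930). The probe set of grlk5 stood at 9.11 ± 0.08 in over-expression (SD, n = 3), 9.55 ± 0.08 in silenced ovules (SD, n = 2) and 9.26 ± 0.07 in wild type (SD, n = 2), the same order over a smaller span. MYB1 stood at 8.22 ± 0.41, 9.99 ± 0.01 and 8.54 ± 0.65 in over-expression, silenced and wild-type ovules. These genes were picked for their correlation with this FLA19 set. A similar order of group means follows largely from that choice and supports nothing.

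The FLA14 sets were less alike. Ghi.9544.1.S1_s_at correlated with Ghi.9544.2.A1_x_at at 0.02 and with Ghi.9544.4.S1_s_at at -0.02, and the last pair at 0.62. The genes nearest to Ghi.9544.1.S1_s_at were CBL3, a calcium sensor of the calcineurin B-like type (r = 0.918), SCP (r = 0.821) and pldd (r = 0.815). Their group means differed little: CBL3 stood at 8.32 ± 0.13 in over-expression, 8.32 ± 0.22 in silenced ovules and 8.27 ± 0.03 in wild type, so the likeness lay in the spread between arrays of a group.

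Other genes of the cell wall and surface, 24 probe sets of expansins, xyloglucan-modifying enzymes, cellulose and sucrose synthases, a pectate lyase and the gene listed as rgp1, had median differences opposite in sign to those of FLA4 and FLA19 in both comparisons with silenced ovules. In over-expression relative to silenced ovules 18 of the 24 had positive differences and 6 negative ones, with a median of 0.20. In silenced ovules relative to wild type 17 had negative differences and 7 positive ones, with a median of -0.38. Of all 23977 probe sets, 47.1% and 47.6% had negative differences in these comparisons. Both comparisons use the same silenced arrays, so they are not separate observations. Some genes of the list, among them rgp1, are read by several probe sets, so the counts are not counts of genes. Limma called 0 of the 24 in these comparisons, with 8 and 9 at an unadjusted p under 0.05, beside 2892 and 3472 of all 23977 probe sets. EXPA3D, an expansin of a family that loosens walls, gave 1.56 and 0.24 for over-expression minus silenced at its 2 probe sets, the first of them nearly the size of the FLA4 difference with the opposite sign. Against wild type in over-expression the list was split, 13 negative and 11 positive, with a median of -0.11, 0 called and 2 at an unadjusted p under 0.05, beside 2505 of all probe sets.

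Fibre genes (8 probe sets, among them E6, abundant in fibres, and the cellulose synthase gene CelA1) averaged 7.40 to 7.83 log2 units per array in over-expression, 7.53 to 7.54 in silenced ovules and 7.31 to 7.83 in wild type. Their median difference was 0.01 for over-expression against wild type, -0.01 for over-expression against silenced and 0.10 for silenced against wild type. Single sets spread around these medians. Over-expression minus silenced ranged from -0.41 to 0.94 (4 negative, 4 positive), with E6 at 0.55. Silenced minus wild type ranged from -0.75 to 0.40 (2 negative, 6 positive), with E6 at -0.62. The CelA1 sets and the expansin set of this list also belong to the wall list. Markers of maturing embryo, genes for seed storage and late embryogenesis proteins, averaged 5.99 to 6.22 in over-expression, 6.21 to 6.22 in silenced ovules and 5.93 to 6.19 in wild type over 7 probe sets, 3 of them with a mean under 4. Their medians were 0.17 for over-expression against wild type, -0.01 for over-expression against silenced and 0.20 for silenced against wild type. Limma called 0 probe sets of either list in any of the 3 comparisons, with 0, 1 and 0 fibre sets and 1, 0 and 2 embryo sets at an unadjusted p under 0.05. The part of these cell types in the FLA differences was not tested.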

How the data were processed

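The deposited values are log2 intensities per probe set of a 1-colour Affymetrix cotton array, 1 array per sample. R 2.7.1, RMA and limma are named in the submitters' processing notes, with no role or order; nothing else about their making was stated. The table held 24132 probe sets with values from 2.27 to 14.55; 103 AFFX and 52 RPTR controls were left out. Gene names came from the platform annotation and the RefSeq gene table of Gossypium_hirsutum_v2.1 (697 probe sets with 1 gene, 324 of them named); no coordinates are given, since the files name no build, and no sequence was used here.

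Differences, moderated SE and adjusted p came from limma 3.58.1 in R 4.3.3 (all 7 arrays, 1 mean per group, 4 residual and 3.01 prior degrees of freedom, two-sided, Benjamini-Hochberg over 23977 probe sets, threshold 0.05), checked on simulated data. The number of arrays limits the precision. Groups came from the sample titles. Named probe sets were all FLA sets, the 3 most correlated named sets per member gene, and called wall genes, of which there were none; EXPA3D, E6 and CelA1 were picked as examples after their values were seen. The members and lists were chosen with earlier results of these data known. Alternatives covered the replicate block, samples fitted, prior, a level filter, scaling, array weights and each array left out.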

Additional observations from a re-analysis of the deposited data

Results flagged for a closer look

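FLA4 and FLA19 stood on opposite sides of wild type in the transgenic groups, with every over-expression array below and every silenced array above both wild-type arrays. Over-expression minus silenced was -1.58 at FLA4 and -1.07, -0.96 and -0.90 at the FLA19 sets Ghi.8013.1.S1_at, GhiAffx.6110.1.A1_x_at and GhiAffx.6110.2.S1_x_at. They are given as descriptions, because the genes were chosen with them known; limma called none of them in the fit of all 7 arrays.

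Control probe sets outside the cotton genes also gave signals. RPTR-Ghi-U57609-2_s_at was 6.79 log2 units higher on wild-type replicate 2 than on wild-type replicate 1, and RPTR-Ghi-A06498-1_at was 5.73 higher in silenced ovules than in wild type. The part of these signals in the FLA differences was not tested. At FLA4 and FLA19 the directions were the same against either wild-type array, but this follows from the groups not overlapping and is no check. Groups of 2 or 3 arrays are too small for a test of single outlying arrays.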

How the results depend on the processing

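Of 21 differences (7 probe sets in 3 comparisons), 17 had 1 sign under each of the 14 alternatives that could give a value, among them all those of FLA4 and FLA19. Many alternatives could not change a sign. Some alter only the spread, the probe sets fitted or a group outside the comparison, and leave the difference as it was. Where groups did not overlap, leaving out a single array could not turn the sign either. FLA4 ranged from -1.15 to -0.78 for over-expression against wild type, -1.79 to -1.42 against silenced and 0.50 to 0.77 for silenced against wild type. The 4 exceptions were FLA14: Ghi.9544.1.S1_s_at in each comparison (-0.13 to 0.14, -0.52 to 0.11 and -0.13 to 0.50) and Ghi.9544.4.S1_s_at for silenced against wild type (-0.29 to 0.04). The filter on level left out Ghi.8013.1.S1_at and Ghi.9544.2.A1_x_at.

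Counts of called probe sets were less stable; the causes were not tested. For over-expression against wild type, 1 call became 0 in the fit of only these groups, above the median level, after cyclic loess and with array weights, and 0 to 475 when single arrays were left out (475 without wild-type replicate 2, 0 without each of the others). For over-expression against silenced, 5 became 238 in the fit of only these groups, 12 with a robust trended prior, 3 above the median level, 9 with median centring, 1209 with array weights, and 0 to 238 with single arrays left out (238 without either wild-type array, 37 without over-expression replicate 2, 0 without each of the others). Of the 7 members 2, 0, 0, 0, 4 and 0 to 2 were called in these settings (2 without either wild-type array, 1 without over-expression replicate 2, namely FLA4). For silenced against wild type, 0 became 8 with the robust trended prior and 0 to 73 with single arrays left out (73 without wild-type replicate 1, 35 without wild-type replicate 2). With a single wild-type or silenced array, its spread is taken from the other groups.

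Median centring moved the split of all probe sets for over-expression against wild type to 8670 lower and 15307 higher, from 11146 and 12830, and for silenced against wild type to 9017 and 14960, from 11423 and 12548. With the replicate number as a block, 0 probe sets were called in each comparison and FLA4, FLA14 and FLA19 gave 6 of 7 lower in over-expression than in wild type. Only over-expression has a replicate 3, so the block takes that array out of the differences. The member differences that involve over-expression were therefore those found without over-expression replicate 3, such as -0.78 for FLA4 against wild type. The labels do not say that a number marks a shared source. Deviations of same-numbered arrays correlated at 0.148 and 0.0537 between over-expression and silenced, -0.305 and -0.217 between over-expression and wild type and 0.0983 between silenced and wild type, so the numbers were not taken as pairs.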
